A study of Mus musculus with 16 samples.

Results

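The 10 genes described here control or carry out iron handling in the liver: Hamp, Hamp2, Bmp6, Hfe, Tfr2, Tfrc, Slc39a14, Slc40a1, Fth1 and Ftl1. They were found by matching the Ensembl identifiers of the count tables to these symbols, and all 10 were present among the 23167 identifiers that the female and male tables share (24840 in the female table, 24623 in the male table). The livers came from 16 mice given a high-fat diet (60% of energy as fat), begun at 7 weeks of age and kept for 16 weeks, and were taken after a 12 hour fast. In the liver-specific knockouts (LKO), floxed alleles of Matr3, which encodes the nuclear RNA-binding protein matrin-3, were combined with Cre recombinase under the albumin promoter, which is active in hepatocytes. There were 4 female LKO, 4 female floxed, 4 male LKO and 4 male floxed mice, each with 1 poly(A) RNA library. The floxed mice carry the same alleles without a stated Cre, and every group received the high-fat diet.

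Hepcidin, the product of Hamp, is a peptide hormone that hepatocytes release into the blood. It binds the iron exporter ferroportin, encoded by Slc40a1, which is then degraded, so that less iron leaves macrophages, hepatocytes and the gut. Transcription of Hamp is driven by BMP ligands, Bmp6 and Bmp2, that in the mouse liver come mainly from sinusoidal endothelial cells and signal through SMAD proteins, and separately by IL6 through STAT3. Hfe and Tfr2 are membrane proteins of the hepatocyte that take part in sensing iron-loaded transferrin. Mice have a second gene, Hamp2, whose peptide did not lower iron when it was overexpressed in mice. The ferritin chains Fth1 and Ftl1 store iron, Tfrc brings in transferrin-bound iron, and Slc39a14 brings in iron that is not bound to transferrin.

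Hamp lies on the minus strand of mm10 chromosome 7 (chr7:30942368-30944032) and Hamp2 beside it on the same strand (chr7:30922372-30924681). Their spliced transcripts, 410 bases for Hamp and 420 bases for Hamp2 in GENCODE M21, matched at 92.4% of 420 aligned positions, with a longest identical run of 87 bases. Reads inside such runs cannot be placed by sequence alone, and the authors' handling of them is unknown here. The coding sequences matched at 93.7% of positions, but the stretch for the mature peptide of 25 residues and the stop codon matched at 64 of 78 positions (82.1%). It is shown because the pair matched less here than over the whole transcript, and capitals mark the bases that differ. The transcripts also differ outside this stretch.
Hamp: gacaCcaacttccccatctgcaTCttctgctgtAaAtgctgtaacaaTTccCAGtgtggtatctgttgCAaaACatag
Hamp2: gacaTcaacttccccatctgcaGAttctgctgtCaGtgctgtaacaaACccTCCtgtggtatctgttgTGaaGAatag

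The promoters of the pair were searched for the core of the BMP-responsive element, GGCGCC, and for a STAT site, TTCNNNGAA, on both strands of the RefSeq windows (build GRCm38.p6, 250 bases before to 50 after the start). The 2 motifs do not overlap in either window. Hamp held GGCGCC beginning 109 bases before its start and TTCTTGGAA beginning 97 bases before it. Hamp2 held TTCTTGGAA beginning 94 bases before its start. At the place aligned to the Hamp element it has GGCACC, which differs by G4A (positions counted from 1 at the element's 5′ end, Hamp base first). GGCGCC occurred in 11.9% of 32851 promoter windows, the STAT site in 8.30%, and both in 0.645%. A match of letters describes the window and does not show that a factor binds there. The windows lie at chr7:30943980-30944279 for Hamp and chr7:30924132-30924431 for Hamp2, both on the minus strand, and matched at 91.1% of aligned positions. They are shown as the windows searched for motifs of the 2 inputs to Hamp described below, with the motif matches in capitals.
Hamp promoter: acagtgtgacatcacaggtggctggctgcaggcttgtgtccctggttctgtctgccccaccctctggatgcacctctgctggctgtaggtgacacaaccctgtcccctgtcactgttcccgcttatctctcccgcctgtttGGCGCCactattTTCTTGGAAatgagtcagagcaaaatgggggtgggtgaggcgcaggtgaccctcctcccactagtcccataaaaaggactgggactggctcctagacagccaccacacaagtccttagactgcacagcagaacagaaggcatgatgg
Hamp2 promoter: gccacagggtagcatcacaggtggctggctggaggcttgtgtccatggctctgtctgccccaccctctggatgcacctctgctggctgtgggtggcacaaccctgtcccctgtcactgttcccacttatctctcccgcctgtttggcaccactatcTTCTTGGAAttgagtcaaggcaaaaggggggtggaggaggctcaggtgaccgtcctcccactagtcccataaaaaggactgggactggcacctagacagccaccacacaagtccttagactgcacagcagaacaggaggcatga

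Iron regulatory proteins bind a hairpin, the iron-responsive element, in the untranslated ends of some of these mRNAs. In a 5′ end it holds back translation, as in ferritin and ferroportin mRNA, and in the 3′ end of Tfrc it protects the mRNA from decay. The search was for an unpaired C, a stem of 5 pairs and the loop CAGTG followed by A, C or T. Pairs of G with T were allowed. The transcript strand of the longest coding transcript of each gene was searched. Elements were found in Fth1, Ftl1 and Slc40a1 (1 each, 5′ end) and in Tfrc (4, 3′ end), and in none of the other 6 genes. Of 21877 genes searched, 0.932% held a match anywhere in the transcript, 0.073% in the 5′ end and 0.421% in the 3′ end. The elements are shown with the loop in capitals. Their shared C, loop letters and pairing were set by the search, so likeness in these is not a result.
Fth1: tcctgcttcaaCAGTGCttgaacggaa
Ftl1: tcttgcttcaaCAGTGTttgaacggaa
Slc40a1: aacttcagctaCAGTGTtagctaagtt
Tfrc: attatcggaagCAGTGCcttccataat
Tfrc: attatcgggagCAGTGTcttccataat
Tfrc: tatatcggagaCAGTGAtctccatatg
Tfrc: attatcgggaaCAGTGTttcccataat

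Each library held between 30495505 and 36496193 counts. Matr3 was lower in each of the 4 LKO livers than in each of the 4 floxed livers of its sex, at 38.5 ± 1.40 against 58.9 ± 5.10 CPM in females and 35.0 ± 1.51 against 57.1 ± 3.66 CPM in males (SD, n = 4 each). CPM are counts relative to library size, scaled with edgeR's TMM factors, and genes are termed called where the p-value, adjusted by Benjamini-Hochberg over all genes tested, lay under 0.05. LKO calls were more frequent in females (1433 of 15432 genes) than in males (160 of 15355), and the female number lay between 396 and 2300 when 1 library was left out. The numbers of the mice used as male floxed 1 and 2 stand apart from the rest. Without these 2 mice edgeR called 229 of 15810 genes in males. The log2 fold changes were then 0.41 for Bmp6 (edgeR adjusted p = 0.34) and -0.88 for Hamp (edgeR adjusted p = 0.2). Samples were separate mice, and nothing in the labels says whether the sexes were processed together, so sex and count table cannot be told apart.

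Per kilobase of the longest coding transcript, Ftl1 was the most abundant of the 10 genes in each group and Bmp6 the least, with Tfrc next to last. On this CPM per kilobase scale Ftl1 had 2933 ± 174 in female LKO, 2667 ± 250 in female floxed, 3667 ± 172 in male LKO and 3234 ± 108 in male floxed livers (SD, n = 4 each). Bmp6 had 0.50 ± 0.107, 0.973 ± 0.168, 0.895 ± 0.0743 and 0.748 ± 0.193 in the same groups. Hamp and Fth1 followed Ftl1. Hamp was at 835 ± 226 and Fth1 at 778 ± 50.5 in female LKO livers, a gap smaller than the SD of Hamp. In male LKO livers Fth1 stood at 1163 ± 29.8 and Hamp at 517 ± 179. The order of these genes depends on the transcript chosen. For Fth1 it was Fth1-203 of 1494 bases, with its iron-responsive element at base 664, against 84 in Ftl1 and 96 in Slc40a1. A shorter Fth1 transcript would raise Fth1 on this scale. Tfr2 and Hamp2 came next, and in male floxed livers they did not differ beyond their spread, at 133 ± 10.8 and 133 ± 37.6. In female LKO livers Hamp2 had dropped to the seventh place, at 28.0 ± 33.0, against 190 ± 155 and the fourth place in female floxed livers. Slc39a14, Slc40a1 and Hfe filled the places between, in that order in each group.

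**Figure D1:**
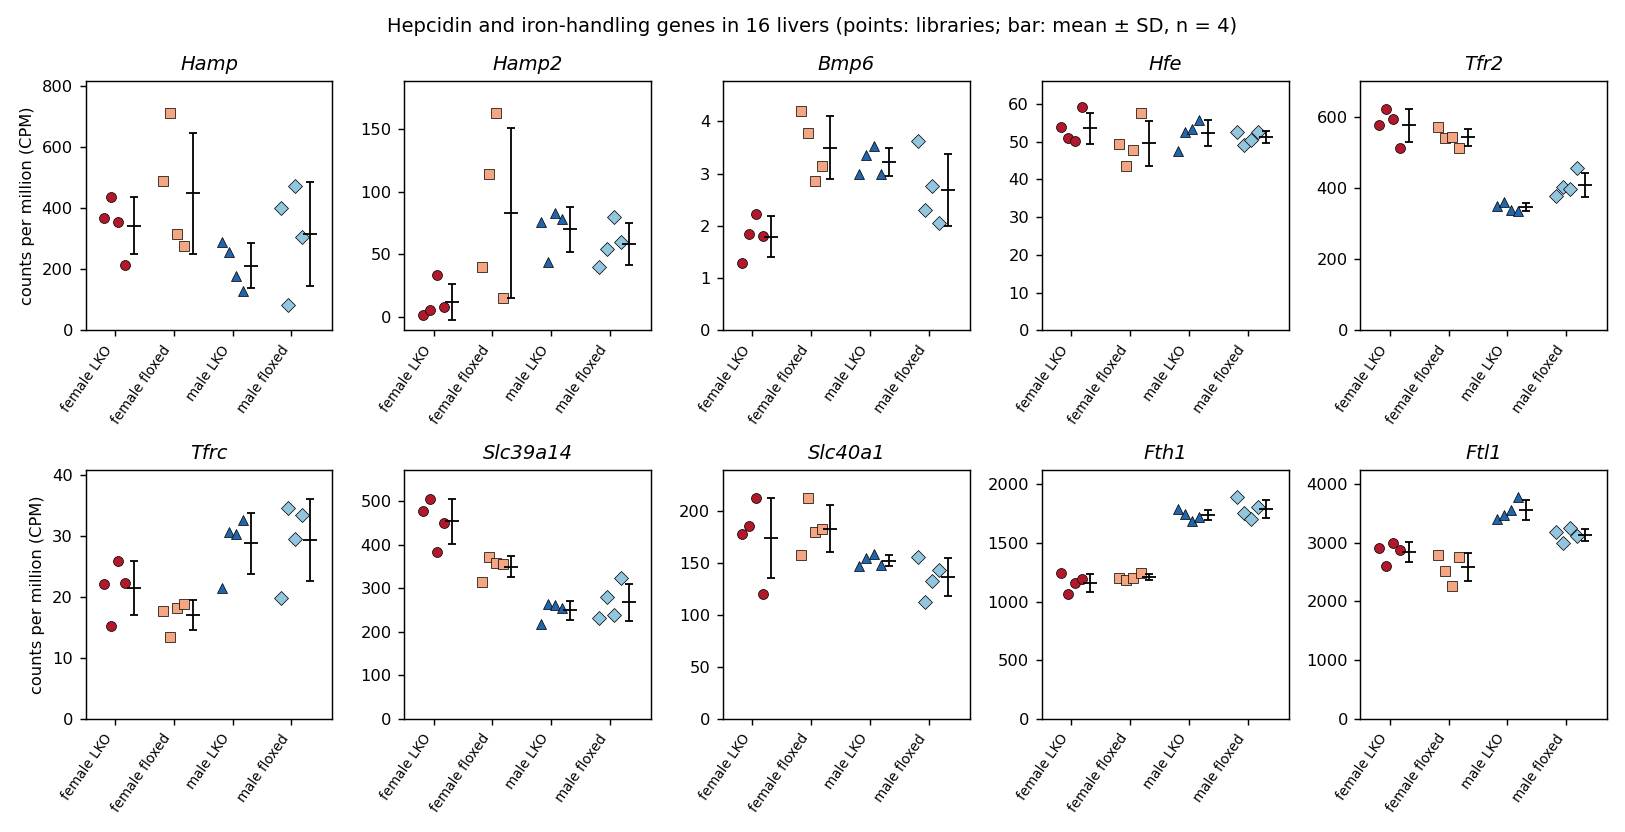
CPM of the 10 genes in each of the 16 livers (y axis, linear, scaled over all libraries), with female LKO, female floxed, male LKO and male floxed livers from left to right. Points are libraries and bars are the mean ± SD of 4. Bmp6 in the 4 female LKO livers lies below all other libraries except 1 male floxed one, while Fth1 separates the sexes without overlap.

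Bmp6, the iron-induced ligand that drives hepcidin transcription, was the only one of the 10 genes called in females. It had 1.31, 1.87, 2.25 and 1.82 CPM in the female LKO livers 5 to 8, against 4.23, 3.83, 2.90 and 3.20 CPM in the female floxed livers 1 to 4. Each LKO liver was below each floxed liver. Bmp6 fell by 0.96 on the log2 scale (SE 0.20, 95% interval -1.41 to -0.52, edgeR adjusted p = 0.0205), to 0.513 of its floxed level. The call rested on few reads, 42 to 75 in the LKO and 92 to 136 in the floxed livers. Bmp6 also shares 224 exon bases with Txndc5 on the opposite strand, and the strand setting of the counting is unknown. Txndc5 had 183 CPM on average in female LKO and 180 CPM in female floxed livers (log2 fold change 0.02, edgeR adjusted p = 0.896). Reads of the overlap cannot be assigned. Leaving out female floxed 1 gave an adjusted p of 0.066 (log2 fold change -0.87), leaving out floxed 2 gave 0.0644 (-0.92), leaving out LKO 5 gave 0.0547 (-0.83) and leaving out LKO 6 gave 0.051 (-0.97). With 1 of 10 genes called, the share was near that of all genes tested, of which 9.29% were called in either direction and 4.85% as lower.

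In males Bmp6 had 2.96, 3.31, 3.48 and 2.96 CPM in the LKO livers, against 3.60, 2.28, 2.72 and 2.03 CPM in the floxed livers. The groups overlapped, since male floxed 1 was above all 4 LKO livers. The log2 fold change was 0.25 (SE 0.18, edgeR adjusted p = 0.634). The LKO effect on Bmp6 differed between the sexes, by -1.22 for females minus males (SE 0.27, 95% interval -1.79 to -0.64, edgeR adjusted p = 0.0198). That difference stayed called when any 1 of the 16 libraries was left out, with adjusted p between 0.00773 and 0.0465. Bmp6 was the only one of the 10 genes with a called difference, and of all genes tested 4.42% had one, 2.45% with the lower value in females.

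Markers of the sinusoidal endothelium, the cells that make most Bmp6 in mouse liver, were lower in the female LKO livers as well. Their summed level over 12 genes was 220.9 to 291 CPM in female LKO livers, against 315 to 342 CPM in female floxed livers, and none of the 12 was at 0 in any library. Of the 12, 8 were called as lower, against 4.85% of all genes tested, and 0 as higher. Their median log2 fold change was -0.69, against 0.00 over all genes tested. Oit3 (-1.0, adjusted p = 0.00788), Fcgr2b (-0.97, 0.0141), Clec4g (-0.57, 0.015) and Kdr (-0.84, 0.0235) had the smallest p in edgeR. Left-out libraries lowered this count to 2 without female floxed 1, to 3 without floxed 2, LKO 5, LKO 6 or LKO 8, and to 5 without floxed 3. In bulk RNA, fewer cells of a type and less RNA per cell cannot be told apart. Measured against the mean log2 level of these markers in the same library, Bmp6 was 0.39 lower in female LKO livers (means -2.98 ± 0.27 in LKO and -2.59 ± 0.25 in floxed livers, SD, n = 4 each). An exact permutation test over the libraries gave p = 0.0571, two-sided, where 0.0286 is the smallest that 70 regroupings allow. In males the same measure was 0.05 higher in LKO livers (exact permutation p = 0.83). The marker list was 331 to 376 CPM in male LKO and 252 to 349 CPM in male floxed livers, and 0 of the 12 genes was called by edgeR, DESeq2 or limma-voom (3 at an unadjusted p under 0.05). All 12 had positive log2 fold changes in males, with a median of 0.22, and edgeR called 2 without male floxed 1 and 2 together.

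**Figure D2:**
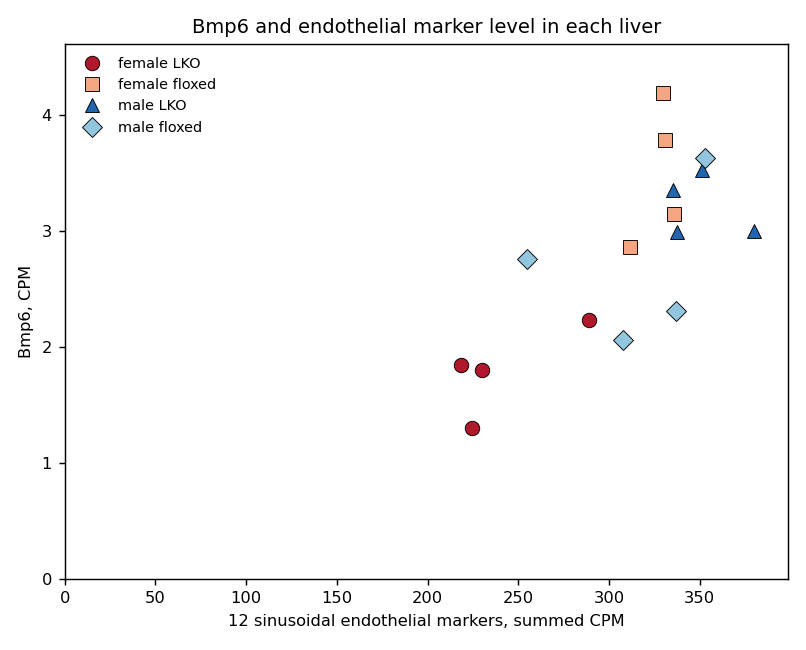
Bmp6 (y axis, CPM) against the summed CPM of 12 sinusoidal endothelial markers (x axis) in the 16 livers, both scaled over all libraries. The 4 female LKO livers lie at the lower left, with Bmp6 between 1.30 and 2.23 CPM and marker sums between 218 and 289 CPM, and only male floxed 3 has a marker sum in their range.

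Hamp, the hepcidin gene itself, was not called in any comparison. It had 373, 440, 356 and 216 CPM in female LKO livers, against 492, 717, 319 and 283 CPM in female floxed livers. The groups overlapped, with floxed 2 highest and LKO 8 lowest. The log2 fold change was -0.39 (SE 0.30, 95% interval -1.05 to 0.28, edgeR adjusted p = 0.433). In males Hamp had 285, 253, 174 and 126 CPM in LKO livers, against 396, 82.0, 465 and 302 CPM in floxed livers. Male floxed 2 had the lowest value of the 16 livers, and the other 3 floxed males were above all 4 LKO males. The log2 fold change was -0.57 (SE 0.43, 95% interval -1.53 to 0.39, edgeR adjusted p = 0.656), and it was -0.89 (adjusted p = 0.172) without male floxed 2. With all libraries the intervals reach from -1.05 in females and -1.53 in males to somewhat above no change, so these data bound the Hamp effect only loosely. The female minus male difference of the effects was 0.19 (SE 0.59, adjusted p = 0.897).

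In females Hamp2 had the largest LKO fold change of the 10 genes, and relative to its mean it also varied most among mice. The female LKO livers 5 to 8 had 1.66, 5.93, 33.7 and 7.98 CPM, against 40.1, 115, 164 and 15.4 CPM in the female floxed livers 1 to 4. The groups overlapped through 1 pair, LKO 7 being above floxed 4. The log2 fold change was -2.76 (SE 0.89, 95% interval -4.74 to -0.79), and the edgeR adjusted p was 0.078. The value passed the threshold without floxed 4 (-3.11, adjusted p = 0.0394), without LKO 7 (-4.01, adjusted p = 0.0135) and in DESeq2 (-2.77, adjusted p = 0.0481), and it ranged between 0.117 and 0.177 when 1 of the other 6 libraries was left out. In males Hamp2 had 75.1, 43.1, 81.9 and 77.0 CPM in LKO livers, against 39.2, 53.7, 78.4 and 58.8 CPM in floxed livers, which overlapped (log2 fold change 0.27, SE 0.23, adjusted p = 0.698). The difference of the effects was -3.03 (SE 0.97, edgeR adjusted p = 0.085).

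The pair moved separately from liver to liver. Hamp2 made up 0.442% to 8.66% of the summed CPM of the pair in female LKO livers, against 5.16% to 34.0% in female floxed livers. In males it made up 14.6% to 37.9% in LKO and 9.01% to 39.6% in floxed livers. The sum of both genes was 358 ± 94.5 CPM in female LKO and 536 ± 222 CPM in female floxed livers (SD, n = 4 each), and 279 ± 66.1 CPM in male LKO and 369 ± 173 CPM in male floxed livers. The log2 differences of the sum were -0.53 in females (exact permutation p = 0.257, two-sided) and -0.27 in males (exact permutation p = 0.629), both at an adjusted p of 0.6 or more over 3 comparisons. Hamp2 shares 89 exon bases with Gm44662, an antisense gene model, and the strand setting of the counting is not given in the sources used here. Gm44662 had 4.03 CPM on average in female LKO and 18.8 CPM in female floxed livers (log2 fold change -2.21, edgeR adjusted p = 0.0906), so reads of the overlap may stand under either name.

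**Figure D3:**
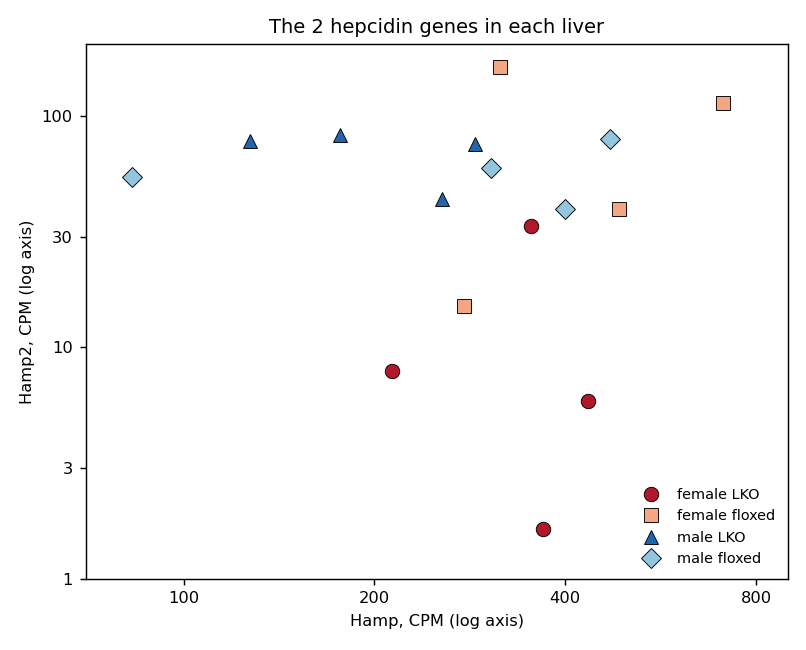
Hamp (x axis) against Hamp2 (y axis) in each of the 16 livers, in CPM on log axes, scaled over all libraries. Hamp2 spans 1.64 to 33.5 CPM in the 4 female LKO livers and 15.1 to 163 CPM in the 4 female floxed livers, while Hamp of these groups overlaps along the x axis.

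Of the receptors that sense transferrin iron, neither was called in either sex. Hfe, which pairs with transferrin receptors, had 50.5 to 60.0 CPM in female LKO and 43.9 to 58.8 CPM in female floxed livers, and 47.1 to 55.1 CPM in male LKO and 48.6 to 52.1 CPM in male floxed livers. Its log2 fold changes were 0.11 (95% interval -0.11 to 0.33) in females and 0.03 (-0.11 to 0.17) in males. Tfr2, the liver's own transferrin receptor and a partner of Hfe, had 344, 356, 335 and 332 CPM in male LKO livers, against 374, 396, 391 and 450 CPM in male floxed livers. Each LKO male was below each floxed male, but the log2 fold change of -0.24 (SE 0.07) had an edgeR adjusted p of 0.153. In females Tfr2 had 519 to 629 CPM in LKO and 522 to 576 CPM in floxed livers (log2 fold change 0.09, adjusted p = 0.58). The effects differed by 0.33 (SE 0.11, adjusted p = 0.0905).

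None of the 10 genes was called in males by edgeR (2 at an unadjusted p under 0.05, Tfr2 and Ftl1) or by limma-voom, and DESeq2 called those 2. Over all 15355 genes tested in males edgeR called 1.04%, while DESeq2 called 518 genes. Over both sexes together edgeR and limma-voom called 0 of the 10 (3 at an unadjusted p under 0.05) and DESeq2 called 1, Ftl1. Over all 16126 genes of that comparison edgeR called 8.55%, while DESeq2 called 2044 genes.

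Among the transporters, Slc39a14, which takes up iron not bound to transferrin and is raised by inflammation in mice, stood highest in the female LKO livers. They had 483, 512, 387 and 456 CPM, against 319, 376, 363 and 362 CPM in female floxed livers. Each LKO female was above each floxed female, and the log2 fold change of 0.37 (SE 0.11, 95% interval 0.14 to 0.61) missed the threshold with an edgeR adjusted p of 0.0549. It was called by DESeq2 (adjusted p = 0.0073) and without LKO 7 (adjusted p = 0.0144). In males Slc39a14 had 215 to 260 CPM in LKO and 230 to 319 CPM in floxed livers (log2 fold change -0.10, adjusted p = 0.768), and the effects differed by 0.48 (SE 0.16, adjusted p = 0.0875). Tfrc, the receptor for iron-loaded transferrin, had 15.5 to 26.2 CPM in female LKO and 13.6 to 19.2 CPM in female floxed livers (log2 fold change 0.33, SE 0.16, adjusted p = 0.218). In males it had 21.3 to 32.3 CPM in LKO and 19.7 to 34.2 CPM in floxed livers (-0.03, SE 0.17, adjusted p = 0.977). Slc40a1, the exporter that hepcidin removes, had log2 fold changes of -0.08 (95% interval -0.43 to 0.28) in females and 0.16 (-0.04 to 0.36) in males, and its groups overlapped in both sexes.

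Neither ferritin chain was called between LKO and floxed livers by edgeR. Fth1, the heavy chain, had 1074 to 1256 CPM in female LKO and 1195 to 1269 CPM in female floxed livers, and 1665 to 1771 CPM in male LKO and 1684 to 1870 CPM in male floxed livers. Its log2 fold changes were -0.06 (95% interval -0.27 to 0.15) in females and -0.04 (-0.18 to 0.10) in males. Ftl1, the light chain, had 3355, 3429, 3515 and 3737 CPM in male LKO livers, against 3139, 2961, 3203 and 3074 CPM in male floxed livers. Each LKO male was above each floxed male, and the log2 fold change, 0.18 with an SE of 0.07, was not called (edgeR adjusted p = 0.294). In females Ftl1 had 2629 to 3007 CPM in LKO and 2293 to 2820 CPM in floxed livers (0.13, SE 0.12, adjusted p = 0.485). Ftl1 shares 355 exon bases with Gm10252 on the opposite strand, and it has pseudogene copies such as Ftl1-ps1, which had 5.28 CPM on average in female LKO and 5.31 CPM in female floxed livers.

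**Figure D4:**
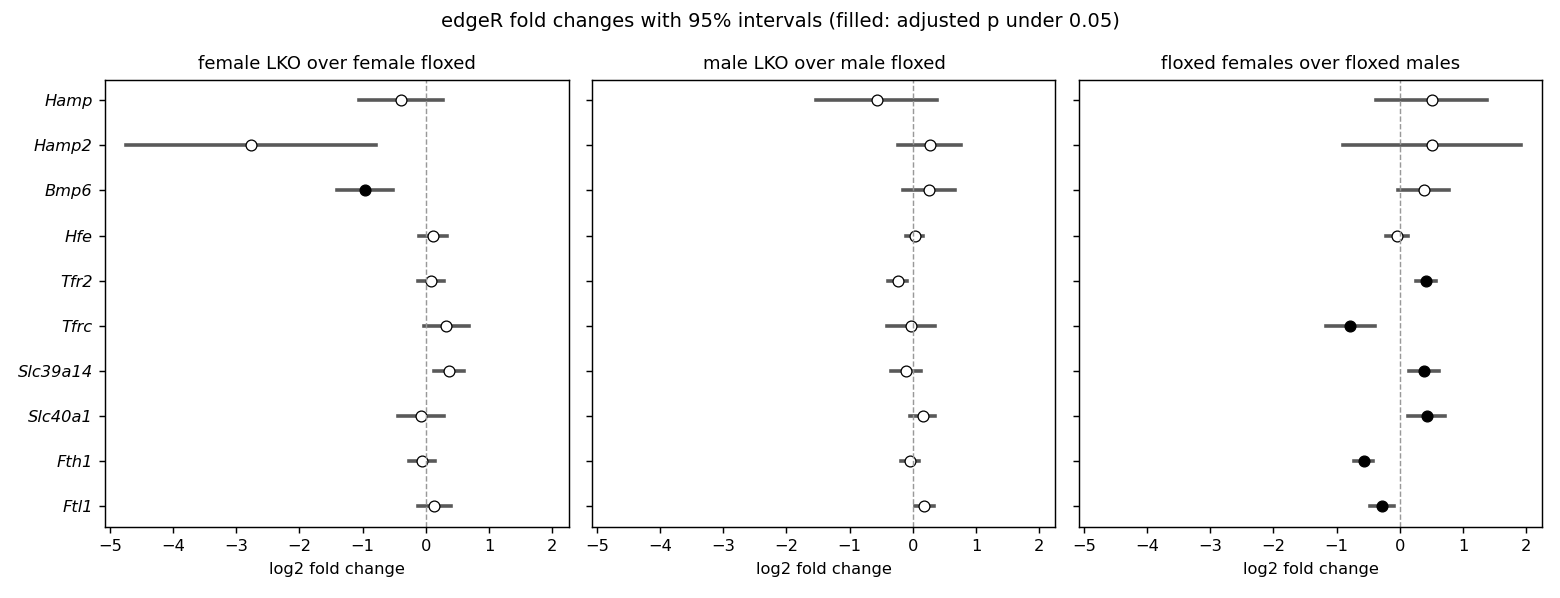
edgeR log2 fold changes (x axis) of the 10 genes with 95% intervals, for female LKO over female floxed, male LKO over male floxed and floxed females over floxed males. Filled points have an adjusted p under 0.05: Bmp6 in the first panel, none in the second, and Tfr2, Tfrc, Slc39a14, Slc40a1, Fth1 and Ftl1 in the third.

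The rest of the BMP and SMAD machinery moved in both directions in female LKO livers. Of 17 tested genes 2 rose and 2 fell, with a median log2 fold change of -0.11 (4.44% of all genes tested were called as higher and 4.85% as lower). Bmp2, the other endothelial BMP ligand, fell to 8.17 ± 1.87 CPM in LKO, against 13.4 ± 1.52 CPM in floxed livers (SD, n = 4 each, log2 fold change -0.72, edgeR adjusted p = 0.023). Smad6, an inhibitor that SMAD signalling itself induces, fell to 7.44 ± 1.47 CPM, against 10.9 ± 1.12 CPM (-0.55, 0.0487). Fgl1, a hepatocyte protein that binds BMP ligands and lowers hepcidin in mice, rose to 2637 ± 440 CPM, against 1416 ± 331 CPM (0.90, 0.0201). Atoh8, a transcription factor downstream of BMP signalling, rose to 24.2 ± 1.94 CPM, against 15.02 ± 3.48 CPM (0.68, 0.0224). Id1, a direct BMP target picked for that role after its values were seen, had 6.46 ± 1.12 CPM in LKO and 11.8 ± 5.25 CPM in floxed livers and was not called (-0.87, 0.102). The 4 calls fell to 0 without female floxed 1, LKO 5 or LKO 6, to 1 without floxed 2 or LKO 8 and to 2 without floxed 3. In males edgeR, DESeq2 and limma-voom called 0 of the 17 (0 at an unadjusted p under 0.05), and the difference of the effects was called for 0 by edgeR (6 at an unadjusted p under 0.05), 3 by DESeq2 and 1 by limma-voom.

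The other input to hepcidin, IL6 through STAT3, showed 2 of 8 genes higher and 0 lower in female LKO livers, with a median of 0.12. Of all genes tested 4.44% were called as higher in that comparison. Socs3, the feedback inhibitor that STAT3 induces, had 65.0, 88.0, 52.8 and 49.8 CPM in female LKO livers, against 30.1, 29.5, 26.6 and 25.7 CPM in female floxed livers. Each LKO female was above each floxed female. Socs3 rose by 1.19 on the log2 scale (SE 0.17, edgeR adjusted p = 0.00579), and the effect differed from that in males by 1.77 (SE 0.28, adjusted p = 0.00475), where Socs3 had 7.66 ± 1.56 CPM in LKO and 11.5 ± 3.27 CPM in floxed livers (SD, n = 4 each). Creb3l3, a membrane-bound transcription factor that can induce Hamp in mice, rose by 0.38 (adjusted p = 0.0351), and its call was lost without floxed 1, 2 or 3 or LKO 5, 6 or 8, with adjusted p of 0.0509 to 0.111. Acute-phase plasma proteins, made by hepatocytes under IL6 and STAT3, rose together, 18 of 21 higher and 0 lower with a median of 1.44. Saa1 had 10306, 21452, 7417 and 7413 CPM in female LKO livers, against 485, 346, 907 and 1395 CPM in female floxed livers (log2 fold change 3.89, adjusted p = 0.00523). For 17 of the 21 the effect was higher in females than in males, against 1.97% of all genes tested. The fall of Bmp6 and the rise of the acute-phase genes occurred in the same 4 livers, where Hamp itself was not called. Whether either bears on Hamp was not tested.

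**Figure D5:**
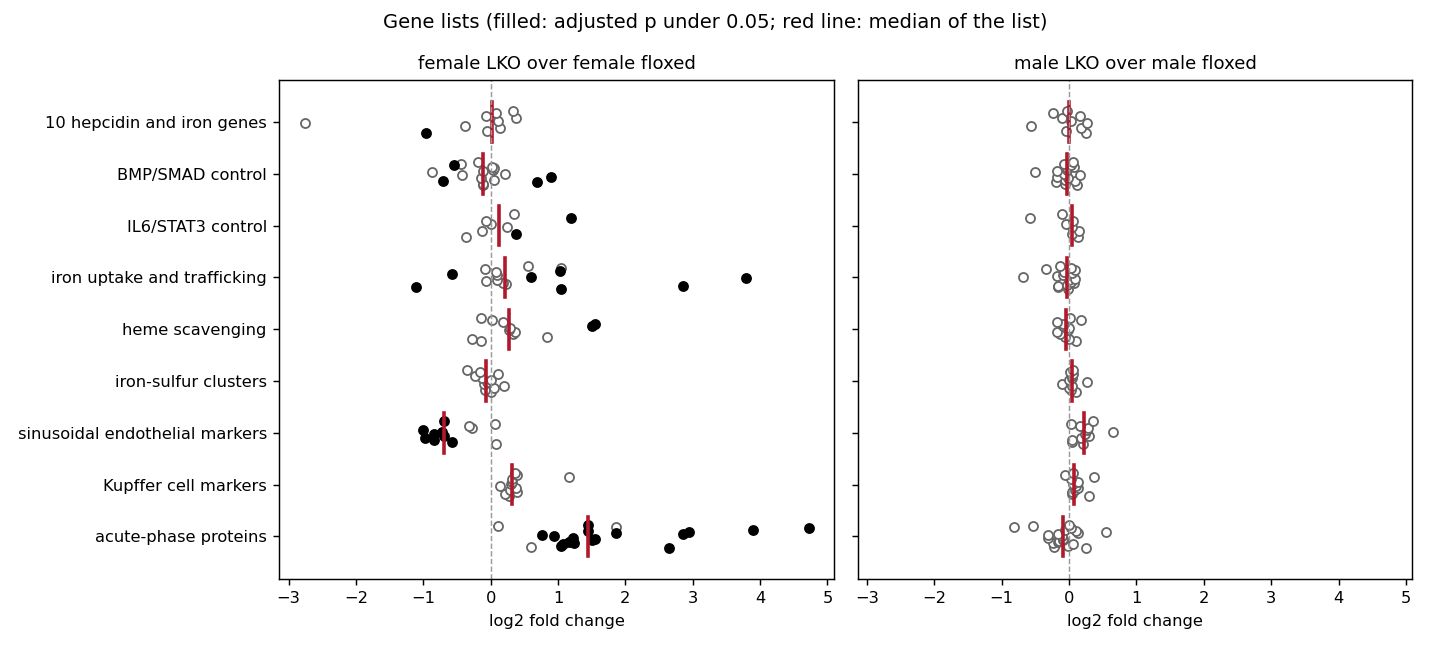
edgeR log2 fold changes (x axis) of the 10 genes and 8 lists of related genes, for female LKO over female floxed and male LKO over male floxed. Points are genes, filled where the adjusted p is under 0.05, and red lines are medians: -0.69 for endothelial markers and 1.44 for acute-phase proteins in females, 0.22 and -0.09 in males.

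Of 16 tested genes for iron uptake, reduction and trafficking, 5 rose and 2 fell in female LKO livers, with a median of 0.21. Of all genes tested 4.44% were called as higher and 4.85% as lower. Lcn2, a siderophore-binding protein of the acute phase, rose to 1555 ± 754 CPM in LKO, against 215 ± 139 CPM in floxed livers (SD, n = 4 each, log2 fold change 2.85, edgeR adjusted p = 0.0112). Scara5, a receptor reported to take up ferritin, rose to 4.34 ± 2.15 CPM, against 0.311 ± 0.366 CPM (3.79, 0.00896). Cp, the plasma ferroxidase ceruloplasmin, rose to 2869 ± 762 CPM, against 1394 ± 226 CPM (1.04, 0.0167), while its membrane-bound relative Heph fell to 0.513 ± 0.0629 CPM, against 1.12 ± 0.267 CPM (-1.11, 0.0272). Slc25a37, the mitochondrial iron importer mitoferrin-1, fell to 38.3 ± 2.43 CPM, against 57.2 ± 3.71 CPM (-0.58, 0.0051). The metalloreductase Steap2 (1.03, 0.0201) and the divalent metal transporter Slc11a2 (0.59, 0.0449) also rose. The 7 calls fell to 3 without floxed 1, floxed 2 or LKO 5 and to 4 without LKO 6, and Cp lost its call in the first 3 of these cases (adjusted p up to 0.0602). In all 4 cases Steap2, Heph and Slc11a2 lost theirs (adjusted p up to 0.124), as did Heph without LKO 8 and Slc11a2 without floxed 3. Cp and Lcn2 belong to the acute-phase list too, so the lists are not independent.

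Of 6 tested genes for iron regulatory proteins and ferritin turnover, 1 rose and 1 fell in female LKO livers. Aco1, which encodes iron regulatory protein 1, the protein that binds the elements printed above, fell to 157 ± 8.75 CPM in LKO, against 226 ± 23.6 CPM in floxed livers (SD, n = 4 each, -0.52, edgeR adjusted p = 0.012). Nedd4l, an E3 ubiquitin ligase, rose to 81.8 ± 25.5 CPM, against 39.0 ± 9.62 CPM (1.07, 0.023), and was no longer called without floxed 1, floxed 2 or LKO 5 (adjusted p up to 0.0731). Of 8 heme synthesis genes 1 was called and of 12 heme scavenging and breakdown genes 2, against 9.29% of all genes tested. Alad, an enzyme of heme synthesis, fell by 0.55 (adjusted p = 0.015). Hpx, which binds free heme, rose to 15583 ± 5108 CPM, against 5339 ± 1588 CPM (1.55, 0.0118), and Hp, which binds free hemoglobin, to 14782 ± 5751 CPM, against 5206 ± 1141 CPM (1.51, 0.0135). Both are acute-phase proteins. Without floxed 1 the call of Hp was lost (adjusted p = 0.0509). None of 12 genes for iron-sulfur cluster assembly was called by edgeR, DESeq2 or limma-voom (3 at an unadjusted p under 0.05).

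In males no gene of these lists was called by edgeR with all libraries. Without male floxed 1 and 2 together it called 2 endothelial markers and 1 hepatocyte marker, and without male floxed 3 it called 1 acute-phase gene. Over 149 tested genes of the pathway and marker lists, each counted once, 14 had an unadjusted p under 0.05, limma-voom called 0 and DESeq2 called 1 acute-phase and 1 iron-trafficking gene. The smallest adjusted p among the iron-trafficking genes was 0.101, for Steap3, the ferrireductase of the transferrin cycle, at a log2 fold change of -0.34. Log2 fold changes in males were 0.06 for Aco1, -0.02 for Cp, -0.17 for Lcn2, -0.09 for Hp and -0.09 for Hpx, with adjusted p of 0.799 to 0.964. The difference of the effects was called for Lcn2, Scara5, Cp and Slc11a2, higher in females, and for Slc25a37, lower in females. These were 5 of 17 iron-trafficking genes, against 4.42% of all genes tested. The difference was also called for Aco1, Nedd4l, Hp and Hpx. That call was lost for Nedd4l without any 1 of 9 libraries (adjusted p up to 0.0804) and for Slc11a2 without any 1 of 10 (adjusted p up to 0.0842).

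The comparison of the sexes was made in floxed livers, which keep Matr3. Between floxed females and floxed males 3 of the 10 genes were higher and 3 lower, against 11.3% of all genes tested as higher and 11.6% as lower (22.9% in either direction). Fth1 had 1198, 1183, 1204 and 1245 CPM in floxed females, against 1890, 1760, 1705 and 1804 CPM in floxed males. The sexes did not overlap, and Fth1 was lower in females by 0.57 on the log2 scale (log2 fold change -0.57, SE 0.07, edgeR adjusted p = 4.7e-05). Tfrc had 17.8, 13.5, 18.3 and 18.8 CPM in floxed females, against 19.9, 34.6, 29.6 and 33.4 CPM in floxed males. It was lower in each female than in each male (-0.78, SE 0.18, adjusted p = 0.00634), with male 1 close to the females. Ftl1 was lower in females as well, at 2582 ± 242 CPM, against 3130 ± 105 CPM in males (SD, n = 4 each, -0.28, SE 0.09, adjusted p = 0.0308), a call that was lost with library totals in place of TMM (adjusted p = 0.0992) and without male floxed 1, 3 or 4 or female floxed 2 or 3 (adjusted p of 0.0523 to 0.0859).

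Tfr2 had 571, 541, 543 and 513 CPM in floxed females, against 378, 401, 396 and 455 CPM in floxed males. The sexes did not overlap, and the log2 fold change was 0.41 (SE 0.08, edgeR adjusted p = 0.0012). Slc39a14 was higher in females, at 350.3 ± 24.2 CPM, against 268 ± 42.3 CPM in males (0.38, SE 0.11, adjusted p = 0.0194), with 1 male inside the female range, and the call was lost without male floxed 1, male floxed 3 or female floxed 2 (adjusted p of 0.0528 to 0.0656). Slc40a1 was higher in females, at 183 ± 22.4 CPM, against 136 ± 18.4 CPM in males (0.42, SE 0.14, adjusted p = 0.0375), and its call was lost without any 1 of male floxed 2, 3 and 4, male LKO 5, 7 and 8 or female floxed 2, 3 and 4 (adjusted p of 0.051 to 0.118). Hamp (0.51, SE 0.42, adjusted p = 0.408), Hamp2 (0.51, SE 0.67, adjusted p = 0.624), Bmp6 (0.38, SE 0.19, adjusted p = 0.165) and Hfe (-0.05, SE 0.08, adjusted p = 0.715) were not called, and the sum of Hamp and Hamp2 was 530.4 ± 220.2 CPM in floxed females and 373 ± 175 CPM in floxed males (exact permutation p = 0.4, two-sided). Bmp6 was called without male floxed 1 (0.55, adjusted p = 0.0446).

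Macrophage markers moved with the sexes. Slc40a1 is highly expressed in Kupffer cells, the macrophages of the liver, which recycle iron from red cells. Of 12 Kupffer cell markers 11 were called as higher in floxed females, against 11.3% of all genes tested. The median log2 fold change of the markers was 1.19. Their summed level was 882 to 1314 CPM in floxed females, against 308 to 491 CPM in floxed males. None of the 12 was at 0 in any library. Vsig4 (1.68, edgeR adjusted p = 3.05e-06) and Clec4f (1.36, adjusted p = 3.99e-06) led them. Relative to the mean log2 level of these markers in the same library, Slc40a1 was lower in floxed females, by 0.82. The means were 1.67 ± 0.33 in females and 2.49 ± 0.35 in males (SD, n = 4 each, exact permutation p = 0.0286, the smallest of 70 regroupings). Slc40a1 itself was higher in floxed females (log2 fold change 0.42), so this measure shows that it differed less than the markers. It gives no level per cell. Cd163, the macrophage receptor for hemoglobin bound to haptoglobin, was higher in females (1.40, adjusted p = 0.0055), as was Hmox1, which breaks down heme (0.54, adjusted p = 0.0494), a call that was lost without any 1 of 12 libraries (adjusted p up to 0.142). Neutrophil markers were higher for 5 of 7 genes (median 2.36), with 1 call by limma-voom, 1 to 3 without male floxed 1, 2 or 3, and 0 without female floxed 4, whose marker sum of 79.3 CPM was the highest of the 8 floxed livers. The part of these cells in the sex differences of the 10 genes was not tested.

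Other genes that bear on the 10 also differed by sex. Of 21 acute-phase proteins 13 were higher in floxed females and 0 lower, with a median of 0.53, against 11.3% of all genes tested as higher. That count fell to 5 without male floxed 2, male floxed 3 or female floxed 4 and to 7 without female floxed 3. Hfe2, the BMP co-receptor hemojuvelin, was lower in floxed females, at 90.6 ± 5.94 CPM, against 125 ± 6.47 CPM in floxed males (SD, n = 4 each, -0.46, edgeR adjusted p = 6.37e-05). Fgl1 was higher, at 1398 ± 320.1 CPM, against 317 ± 184 CPM (2.14, adjusted p = 0.00015), and so was Socs3, at 27.6 ± 2.21 CPM, against 11.6 ± 3.31 CPM (1.25, adjusted p = 0.00038). In iron-sulfur cluster assembly 6 of 12 genes were lower in females and 0 higher, against 11.6% of all genes tested as lower. The list had a median of -0.18. The scaffold Iscu led the 6 genes, at 76.9 ± 6.99 CPM, against 119 ± 4.70 CPM (-0.63, edgeR adjusted p = 1.13e-05). Ireb2, which encodes iron regulatory protein 2, was lower in females (-0.35, adjusted p = 0.0145), and Scara5 was lower at 0.306 ± 0.358 CPM, against 6.79 ± 3.50 CPM (-4.46, adjusted p = 0.000304). Alas2, the heme synthesis enzyme of red cell precursors, was lower in females (-2.89, adjusted p = 3.6e-10). It was the only one of 7 erythroid markers called, while 5 of the 7 had positive log2 fold changes, with a median of 0.35.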

How the data were processed

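Per the labels' protocols, RNA was extracted with TRIzol and Novogene prepared directional poly(A) libraries from it. Raw counts were deposited by the authors per Ensembl gene, in 1 table for each sex, on genome build mm10 per the submitters' processing notes. The aligner, counter and strand setting are not given in the sources used here, so reads that overlapping or near-identical genes share cannot be assigned. Matr3 counts cover the whole gene and cannot show the deleted exons alone.

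Symbols came from GENCODE M21, and Hjv was matched under its older name Hfe2. The members and lists were chosen with earlier results of these data known. Of 180 list symbols 1, Ahsp, had no gene. RefSeq promoter entries existed for 8 of the 10 genes. Genes passing filterByExpr (minimum count 10, minimum total 15) received TMM factors. The main test, two-sided, was edgeR's quasi-likelihood one (version 4.0.16, under R 4.3.3), with Benjamini-Hochberg adjustment over all genes and a threshold of 0.05. All 10 genes passed the filter in every fit. Each sex was fitted alone. The effect over both sexes, its difference between the sexes and the comparison of floxed mice came from 1 fit of 16 libraries. Values within a sex are scaled within that sex, and values between the sexes over all 16 libraries. Fold changes are log2, LKO over floxed or females over males. Log2 levels used a prior count of 2. Sums and marker ratios were tested by exact permutation. In each list and comparison the genes with the smallest p were named, up to 4. Other genes given were picked after their values were seen. The procedure was tested on simulated data. DESeq2 1.42.0 and limma-voom 3.58.1, other scalings and filters, and leaving out each library were alternatives. No 2 libraries of a group were copies of each other (chi-square per degree of freedom at least 12.7). Depth was 30495505 to 36496193 counts per library. Values after ± are the SD among 4 mice. The SE and 95% interval of a fold change are not such a spread and come from the edgeR fit. Each SE was the absolute log2 fold change divided by the square root of the F statistic of the test.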

Additional observations from a re-analysis of the deposited data

Results flagged for a closer look

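For the genes named below, the LKO effect differed between the sexes in edgeR (adjusted p under 0.05), and the values are log2 differences, females minus males. Among the 10 iron genes it was Bmp6 at -1.22. Endothelial markers differed in the same direction, with Kdr at -1.08, Oit3 at -1.26, Fcgr2b at -1.15, Gpr182 at -0.98 and Clec4g at -0.61. Acute-phase and scavenging proteins differed the other way. These were Saa2 at 4.70, Saa1 at 3.96, Hpx at 1.64, Hp at 1.60, Itih3 at 1.54, Fga at 1.48, Fgb at 1.32 and Crp at 1.02, with Socs3 at 1.77. Iron-trafficking and regulatory genes gave Scara5 at 4.48, Lcn2 at 3.03, Cp at 1.06, Slc11a2 at 0.77, Nedd4l at 1.08, Slc25a37 at -0.63 and Aco1 at -0.58. The hepatocyte genes Hnf4a and Alb had 0.70 and -0.92. Because the sexes were deposited as separate tables, sex and table cannot be told apart. Dixon's test for an outlying value flagged no library for the 10 iron genes in the 40 groups of 4 examined. With 4 values that test flags only very wide gaps, so it cannot show that outlying libraries are absent. Hamp2 in male LKO livers, for example, was not flagged, with 43.1 CPM in LKO 6 against 75.1 to 81.9 CPM in the rest of its group.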

How the results depend on the processing

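Over 1000 alternative values for the fold changes of the 10 genes, 0 reversed a call, 24 lost one and 20 gained one. DESeq2 called 2 genes in males (main result 0), 3 in females (main result 1), 1 over both sexes (main result 0) and 3 for the difference (main result 1). In females 3 were called in the 16-library fit and 3 without floxed 4 and LKO 7 together. Those 2 livers are the pair through which the Hamp2 groups overlapped, and leaving out floxed 4 or LKO 7 alone gave 2010 or 2300 calls over all genes. Leaving out both therefore favours more calls from the start and lends no support to them. With 1 library left out, calls ranged between 0 and 3 in females, 0 and 1 over both sexes, 1 and 3 for the difference and 3 and 6 between the sexes. Over all genes, DESeq2 called 518 in males (edgeR 160), 2415 in females (edgeR 1433) and 1358 as differing by sex (edgeR 713); the 16-library fit gave 97 in males and 2854 in females, and 3028 were called in females without floxed 4 and LKO 7. The ranges with 1 library left out were 69 to 179 in males, 396 to 2300 in females, 788 to 2252 over both sexes, 407 to 1435 for the difference and 2874 to 3907 between the sexes. Mice with the same number in females and males did not deviate together (correlations -0.119 to 0.13), so the numbers do not pair them; with a replicate block, 468 genes were called for the difference and 2937 between the sexes. Under that block Bmp6 still differed between the sexes in its LKO effect (-1.25, adjusted p = 0.0297), 1 of the 10 genes was called for the difference, and 4 were called between the sexes. No scaling moved the median gene by 0.1 or more. The cause of the moved counts was not tested.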

Other observations

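After removal of the 4 group means, Hamp and Hamp2 were almost unrelated over the 16 livers (Pearson r = 0.07, Spearman rho = 0.03), given as a description without a test. Among 10866 genes the patterns most like Hamp were those of Zfp395 (r = 0.819, rho = 0.679), Gba2 (0.78, 0.576), Dffb (0.762, 0.656), Ndufc1 (0.76, 0.65) and Ttc39b (0.754, 0.635). For Tfrc they were Mtfr1 (r = 0.886, rho = 0.715), Hhip (0.855, 0.738), Rab11a (0.808, 0.759), Dis3l2 (0.802, 0.553) and Nifk (0.782, 0.312). These are the highest of many values over livers that share library preparation and depth, and no p is given.

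Other cell markers in female LKO livers were as follows. Of 12 Kupffer cell markers edgeR, DESeq2 and limma-voom called 0 (3 at an unadjusted p under 0.05), with a median log2 fold change of 0.32 and summed levels of 1013 to 1535 CPM in LKO and 890 to 1338 CPM in floxed livers, and 4 were called without floxed 4. Of 7 neutrophil markers the same tools called 0 (1 at an unadjusted p under 0.05), with a median of 1.28, and 5 were called without floxed 4. Klf1, an erythroid transcription factor, was the 1 called of 7 erythroid markers (-1.18, adjusted p = 0.0175). The list's median was 0.58, with 4 of 7 positive, and the call of Klf1 was lost without floxed 1 or 2 or LKO 5 or 6. Of 7 genes of dividing cells edgeR and limma-voom called 0 (4 at an unadjusted p under 0.05) and DESeq2 called 2. Among 12 hepatocyte genes Hnf4a rose by 0.52, while Alb fell by 0.88 and Ttr fell by 0.75 on the log2 scale. These 3 calls were lost without any 1 of floxed 1, floxed 3, LKO 5 and LKO 8, for Alb and Ttr also without floxed 2, and for Ttr without LKO 6.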
